A study of Mus musculus with 8 samples.

Results

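Genes of the cytosolic translation factors were taken by symbol from the deposited gene table of mouse morulae: every Eif1 to Eif6, Eef1 and Eef2 gene, Etf1, Gspt1 and Gspt2, leaving out the Eif2ak kinases, Eif2s3y and Eef1e1. The rule found 68 of 18257 genes. Of these, 65 had enough counts to be tested, and Eef1a2, Eef1akmt3 and the read-through gene Eef1akmt4-ece2 did not. The rule itself used names only, but it was set with earlier results of these data known. The treated group was wild-type mouse embryos grown in KSOM medium with 2 µM A485, a catalytic inhibitor of the acetyltransferases p300 and CBP that had been dissolved in DMSO. The control group was wild-type embryos grown in KSOM with 0.1% DMSO. Strain and age are not given in the sources used here. Exposure began at the 4-cell stage. The labels describe culture up to the blastocyst stage, whereas the collected embryos are called morulae. Each group had 4 libraries of polyadenylated RNA, each from 3 pooled embryos without zona pellucida, amplified as cDNA. Neither litter nor day of culture is given for the pools, so p-values measure the spread between these pools.

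Protein synthesis starts when eIF2 with bound GTP brings the initiator tRNA to the small ribosomal subunit, where eIF1, eIF1A and eIF3 help it to find the start codon. eIF2B recharges eIF2 with GTP, the eIF4 factors bind the mRNA cap and unwind the mRNA, and eIF5 and eIF5B let the large subunit join. Elongation then runs through eEF1A, which delivers aminoacyl-tRNA, and eEF2, which moves the ribosome along, until eRF1 and eRF3 (Etf1, Gspt1 and Gspt2) release the finished chain. After fertilization the embryo's own genome takes over the supply of these mRNAs from maternal stores.

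Most of the factor genes were lower after A485. By the quasi-likelihood test of edgeR, with p-values adjusted over 12936 genes by the Benjamini-Hochberg method, 42 of the 65 tested members fell (64.6%), against 25.0% of all tested genes. Another 10 rose (15.4%), against 29.7% of all tested genes, and 13 did not pass an adjusted p of 0.05. The background for a call in either direction was 54.7%. The members' median log2 fold change, A485 over control, was -0.60, and that of all tested genes was 0.09. The range over members ran from -3.88 for Eif4e1b to 2.80 for Eif4a3l1. In CPM, which scale counts to the size of each library after edgeR's TMM factors, all A485 libraries lay below all control libraries for 38 members, where the background was 24.6%, and above them for 10, where the background was 26.9% (51.5% in either direction). The authors' deposited table gave the same numbers, 42 members lower and 10 higher at a q-value under 0.05. These RNAs came from whole pooled embryos without a spike-in, so fewer cells of a type and less RNA per cell cannot be told apart, and each change is relative to the other genes.

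**Figure D1:**
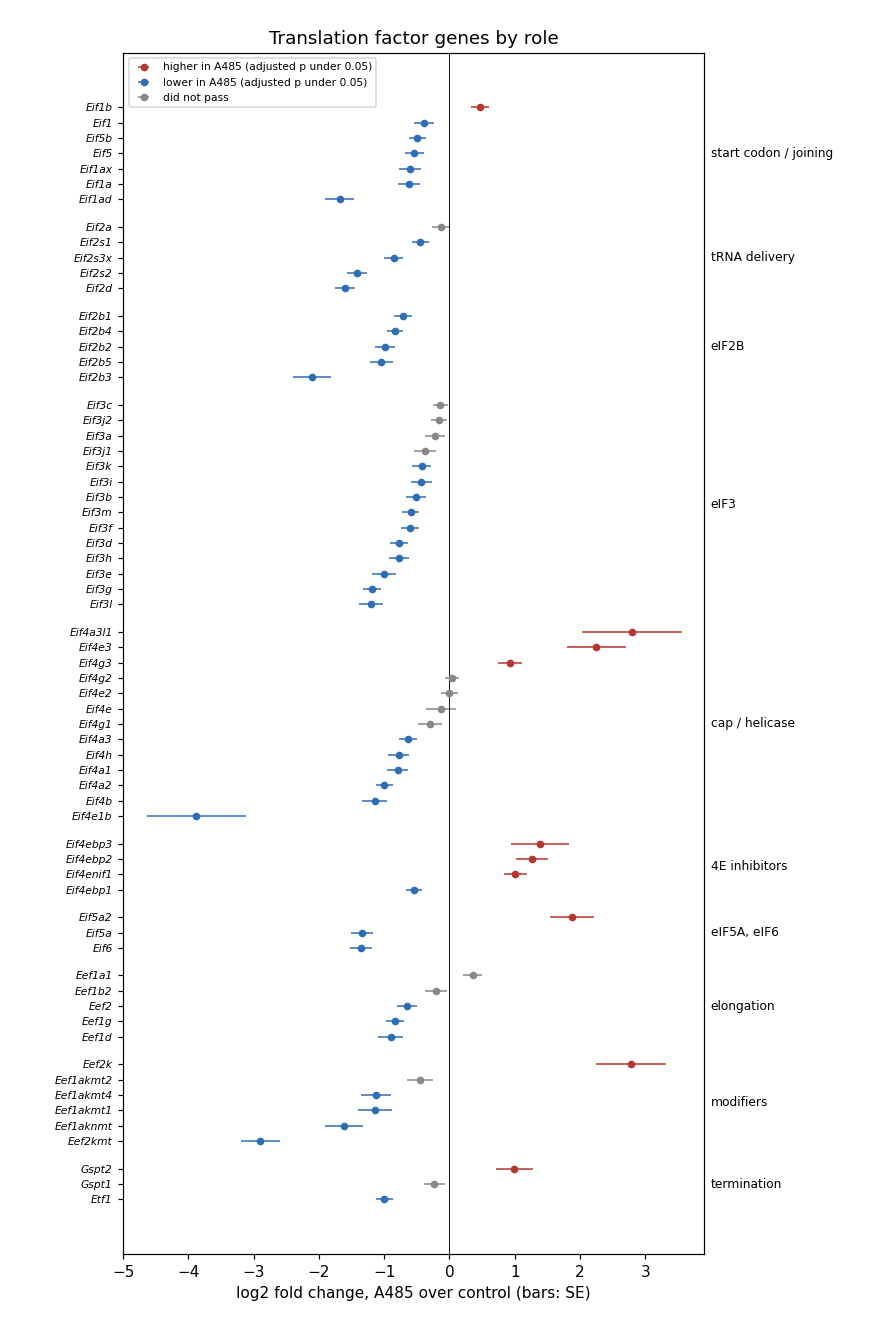
Log2 fold change of each tested member, A485 over control, with its SE (horizontal axis), in blocks by role (vertical axis). Members lower in A485 fill most blocks, and all 5 eIF2B genes lie left of 0, whereas 3 of the 4 genes of eIF4E-binding inhibitors lie right of it.

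Library depth was even, with totals of 23641781 to 25677701 estimated counts. The A485 libraries differed more from each other than the controls did, with a chi-square per degree of freedom of 57.8 to 199.3 between A485 pairs and 18.8 to 33.1 between control pairs. Within A485, replicates 1 and 2 (64.2) and replicates 3 and 4 (57.8) were the closest pairs. Without A485 replicates 1 and 2, 47 members were lower and 8 higher, and without A485 replicates 3 and 4, 39 were lower and 8 higher. Among 12 markers of the morula and its lineages, 8 were lower and 2 higher in A485, and their summed level was 3525 to 5890 CPM in A485 and 9316 to 10410 CPM in control libraries. Dppa3 made up most of the control sum, at 6980 to 7815 CPM, and had 727.9 to 3951 CPM in A485. The 2 higher markers were Krt8 (log2 fold change 1.71) and Krt18 (1.12), so the sum does not stand for every marker. Of 5 blood markers, Hba-a1, encoding an alpha-globin, was the one with enough counts to be tested. The blood sum, nearly all of it Hba-a1, was 100.9 to 328.8 CPM in A485 and 7.75 to 17.5 CPM in control libraries. The 4 other markers, the beta-globin genes Hbb-bs and Hbb-bt among them, had too few counts to be tested. The sums of oocyte markers (21.9 to 39.8 CPM in A485 and 21.6 to 34.3 CPM in control), cumulus markers (23.3 to 47.1 CPM in A485 and 24.1 to 40.7 CPM in control) and fibroblast markers (1.48 to 3.27 CPM in A485 and 0.813 to 3.02 CPM in control) overlapped. Single markers could differ from their sum. Of 7 tested oocyte markers, 2 were higher in A485 (28.6%, against 29.7% of all tested genes) and 0 lower. The 2 were the rare Bcl2l10 (log2 fold change 2.93) and H1f8 (1.17). Amhr2 made up most of the cumulus sum, averaging 33.5 CPM in A485 and 28.3 CPM in control. The part of these markers in the results was not tested.

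Direction went with level. Of the 41 members with an average log2 CPM of at least 7, 34 fell and 0 rose by edgeR's test, with a median log2 fold change of -0.71. At that level 43.8% of all 1443 genes fell and 15.1% rose, with a median of -0.29. Of the 8 members under a log2 CPM of 3, 6 rose and 2 fell, whereas 35.1% of all genes at that level rose and 13.9% fell. Some genes this rare passed the filter on low counts through their higher group, so their direction is partly tied to the filter. Eif4e3 had 9, 8, 14 and 4 counts in control, and Eif4e1b had 3, 1, 0 and 5 counts in A485. The average level also includes the change itself. The abundant, general factors thus made up most of the falls, and several less abundant paralogs and regulators the rises.

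**Figure D2:**
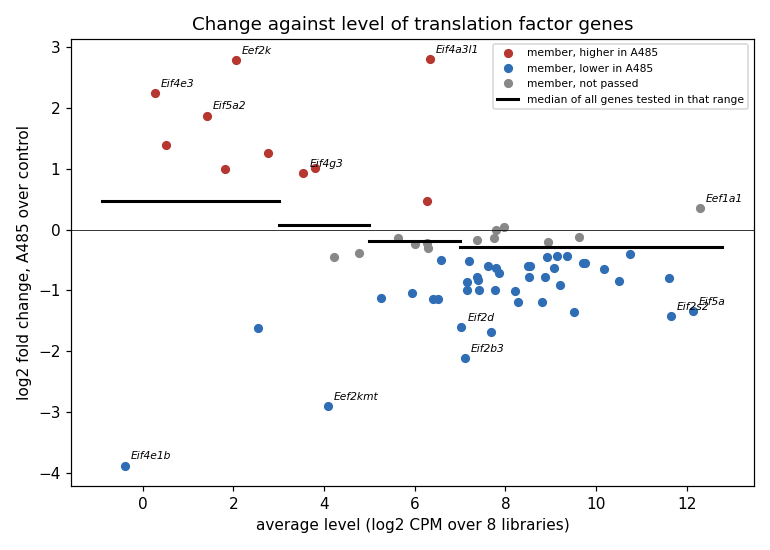
Log2 fold change, A485 over control (vertical axis), against the average log2 CPM over the 8 libraries (horizontal axis) for the tested members. At a log2 CPM of 7 and above 34 of the 41 members were lower and 0 higher, while 6 of the 8 members under 3 were higher.

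Other genes of the translation machinery are set beside these for comparison. Of 76 cytosolic ribosomal protein genes, 39 fell (51.3%) and 1 rose (1.32%), with a median log2 fold change of -0.47. Of 19 cytosolic aminoacyl-tRNA synthetase genes, 10 fell (52.6%) and 2 rose (10.5%), with a median of -0.53. Of all tested genes 25.0% fell and 29.7% rose, and of those with a log2 CPM of at least 7, 43.8% fell and 15.1% rose.

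Several of these mRNAs are classed in mammals by a pyrimidine-rich first stretch, the terminal oligopyrimidine tract, which couples their translation to the kinase TOR. The first bases were therefore read from RefSeq's promoter table of GRCm38.p6, which held 48 of the 65 tested members. For genes with more than 1 start listed, such as Eif5a with 6, only the first listed was read, and other starts were not. A start was called TOP-type where a C within 2 bases of the annotated start was followed by at least 4 C or T. Such a start was found in 9 of the 48 members (18.8%), in 6 of the 30 lower members, in 1 of the 7 higher members, in 33.9% of 56 ribosomal protein genes and in 9.96% of all 10413 tested genes with a promoter. The windows below run from 10 bases before to 20 bases from the annotated start. Capitals mark only the stretch of C and T counted from the C that met this rule. They are shown for a subunit each of eIF2, eIF3 and eIF2B that were lower, and for the most abundant elongation factor, which was not. Eif2s3x lies at chrX:94212632-94212661 on the minus strand, Eif3f at chr7:108934405-108934434 on the plus strand, Eif2b5 at chr16:20498807-20498836 on the plus strand and Eef1a1 at chr9:78481705-78481734 on the minus strand.
Eif2s3x: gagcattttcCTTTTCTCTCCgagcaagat
Eif3f: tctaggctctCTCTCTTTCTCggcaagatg
Eif2b5: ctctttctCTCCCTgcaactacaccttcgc
Eef1a1: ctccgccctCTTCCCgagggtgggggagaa

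The counted stretch is 11 bases long in Eif3f and Eif2s3x and 6 bases long in Eif2b5 and Eef1a1. In all 4 windows more C and T directly precede it, so the whole pyrimidine run is longer and opens before the capitals. A match describes these letters only. A missing match does not show that a gene lacks such a tract, since only bases near the annotated start were read. The shares above, that of the ribosomal protein genes included, therefore count matches to this rule and not TOP mRNAs.

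The 250 bases before the same start were also searched on both strands for the E-box CACGTG, the letters bound by MYC and related factors. It was found in 11 of the 48 members (22.9%) and in 8.43% of the 10413 tested genes. It was present in 7 of the 30 lower members (23.3%), in 3 of the 7 higher members (42.9%) and in 1 of the 11 that did not pass (9.09%), so members of either direction carried it. By contrast, 4 of 56 ribosomal protein genes had it (7.14%). The letters CCAAT were found in 27.1% of members and 37.6% of tested genes, and CCGGAAGT (6.25% and 5.97%), AAGATGGC (2.08% and 2.00%), the NRF1 motif (2.08% and 1.63%) and TGACGTCA (0 of 48 and 2.72%) were rarer. No searched word contains another. The 150 bases before the start are shown for a member that rose, Eif1b (chr9:120492456-120492605, plus strand), and for 2 that fell, Eef2 (chr10:81176481-81176630, plus strand) and Eif3f (chr7:108934265-108934414, plus strand), with the E-box in capitals.
Eif1b: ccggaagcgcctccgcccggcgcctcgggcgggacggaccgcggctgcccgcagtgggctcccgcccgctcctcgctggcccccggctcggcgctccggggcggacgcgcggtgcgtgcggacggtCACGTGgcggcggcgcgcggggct
Eef2: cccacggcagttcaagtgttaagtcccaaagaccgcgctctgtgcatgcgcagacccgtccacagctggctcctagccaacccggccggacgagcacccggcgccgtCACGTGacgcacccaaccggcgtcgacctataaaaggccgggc
Eif3f: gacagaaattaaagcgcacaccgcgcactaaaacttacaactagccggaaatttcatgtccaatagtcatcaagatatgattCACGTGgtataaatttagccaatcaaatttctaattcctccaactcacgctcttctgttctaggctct

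Counts by role, here and below, are to be read against the 25.0% of all tested genes that fell and the 29.7% that rose. At a log2 CPM of at least 7 these shares were 43.8% and 15.1%. Of the genes placed under start codon selection and subunit joining, 6 of 7 fell and Eif1b rose. Eif1ad encodes a protein with an eIF1A domain, and whether it acts in this step was not tested. It changed most of this group: in replicates 1 to 4 it had 141.6, 107.0, 66.4 and 72.7 CPM in A485, against 319.6, 294.2, 317.6 and 315.7 CPM in control. The groups did not overlap, and its log2 fold change was -1.69 ± 0.22 (SE; edgeR adjusted p = 0.000192). Eif5, the GTPase-activating protein of eIF2, had 657.3, 691.9, 767.9 and 690.1 CPM in A485, against 931.7, 1092, 1232 and 832.7 CPM in control. All of its A485 libraries were below all controls (log2 fold change -0.54, edgeR adjusted p = 0.00957).

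Eif1 and Eif1b encode near-identical forms of eIF1, which guards against starting at the wrong codon. Eif1 had 1791, 1518, 1225 and 1371 CPM in A485, against 2115, 1792, 1742 and 2112 CPM in control. A485 replicate 1 lay inside the control range, and the fall was small (log2 fold change -0.39 ± 0.15, SE; edgeR adjusted p = 0.0472). It missed the threshold in 11 of 19 alternative settings. Eif1b had 95.4, 93.2, 82.8 and 88.3 CPM in A485, against 66.9, 53.9, 61.9 and 76.8 CPM in control. Its groups did not overlap (log2 fold change 0.47 ± 0.14, SE; edgeR adjusted p = 0.0150), although the adjusted p was 0.0664 without control replicate 3 and 0.0588 without A485 replicates 1 and 2. Reads of such similar genes and of their pseudogenes could be split between copies by the authors' counting, so their separate levels are uncertain. Eif1a and Eif1ax, another near-identical pair encoding eIF1A, both fell (log2 fold changes -0.62 and -0.60), and Eif5b, the GTPase that joins the subunits, fell by 0.49 on the log2 scale. The groups of Eif1ax overlapped. With total-count scaling the calls of Eif5, Eif1a, Eif1ax and Eif5b were lost (edgeR adjusted p = 0.192, 0.0876, 0.0838 and 0.150), and that of Eif1ax also without A485 replicates 3 and 4.

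For delivery of the initiator tRNA, 4 of 5 genes fell. Eif2s2, encoding eIF2 beta, had 2143, 1644, 1413 and 1796 CPM in A485, against 4541, 4628, 4868 and 4653 CPM in control. Every A485 library was below the lowest control, at a fold of 0.374 (log2 fold change -1.42 ± 0.15, SE; edgeR adjusted p = 5.94e-05). The other subunits had smaller changes. Eif2s1, encoding eIF2 alpha, the subunit phosphorylated by the stress kinases, averaged 408.3 ± 53.7 CPM in A485 and 556.1 ± 34.2 CPM in control (SD, n = 4 each). Its log2 fold change was -0.45 ± 0.13 (SE; edgeR adjusted p = 0.0137), a call lost with total-count scaling (-0.16, edgeR adjusted p = 0.291). That of Eif2s3x, encoding eIF2 gamma, was -0.86. Eif2d, encoding a factor that can deliver tRNA without eIF2, had 69.7, 54.3, 55.0 and 79.6 CPM in A485, against 192.1, 202.3, 201.2 and 189.8 CPM in control. Its log2 fold change was -1.60 ± 0.15 (SE; edgeR adjusted p = 2.93e-05). Eif2a, which is a separate gene from the eIF2 alpha subunit, did not pass (log2 fold change -0.14).

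All 5 subunit genes of eIF2B, the exchange factor that recharges eIF2, fell, with groups that did not overlap for any of them. Of all tested genes, 25.0% fell and 24.6% had every A485 library below every control. At a log2 CPM of at least 7, 43.8% of all genes fell. Eif2b3, encoding the gamma subunit, changed most, with 84.0, 50.2, 28.4 and 44.4 CPM in A485, against 215.3, 278.6, 204.0 and 197.9 CPM in control. Its log2 fold change was -2.11 ± 0.29 (SE; edgeR adjusted p = 0.000246), a level 4.33-fold higher in control. Eif2b5, the catalytic epsilon subunit, had 50.2, 39.98, 28.9 and 40.6 CPM in A485, against 72.2, 75.2, 83.8 and 97.8 CPM in control. It fell by 1.04 on the log2 scale, and Eif2b1, Eif2b2 and Eif2b4, which form the regulatory part, had log2 fold changes of -0.71, -0.99 and -0.84. Summed over the complex, the authors' TPM (a level per transcript length) was 311.5 to 359.8 in A485 and 540.7 to 634.2 in control libraries.

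Of 14 genes of eIF3, the large scaffold on the small subunit, 10 fell and 4 did not pass. The 4 were Eif3a and Eif3c, which encode the largest subunits, and the near-identical pair Eif3j1 and Eif3j2. Eif3a had 87.7, 71.0, 54.3 and 72.4 CPM in A485, against 79.7, 92.5, 77.9 and 82.2 CPM in control, with overlapping groups and a log2 fold change of -0.22 (edgeR adjusted p = 0.257). Eif3g, a peripheral subunit with an RNA-binding domain, had 327.5, 283.6, 218.3 and 256.0 CPM in A485, against 605.4, 654.9, 600.0 and 616.6 CPM in control. It fell by 1.19 on the log2 scale (SE 0.14, edgeR adjusted p = 0.000101). Eif3l (-1.20) and Eif3e (-1.01) also fell, and Eif3d, Eif3h, Eif3f, Eif3m and Eif3b had log2 fold changes between -0.77 and -0.51, of which the call of Eif3b was lost with total-count scaling (edgeR adjusted p = 0.171). Eif3i and Eif3k had log2 fold changes of -0.43 each with overlapping groups, and missed the threshold in 10 and 11 of 19 alternative settings. The spread of changes within the complex is a description, since differences between its subunits were not tested.

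**Figure D3:**
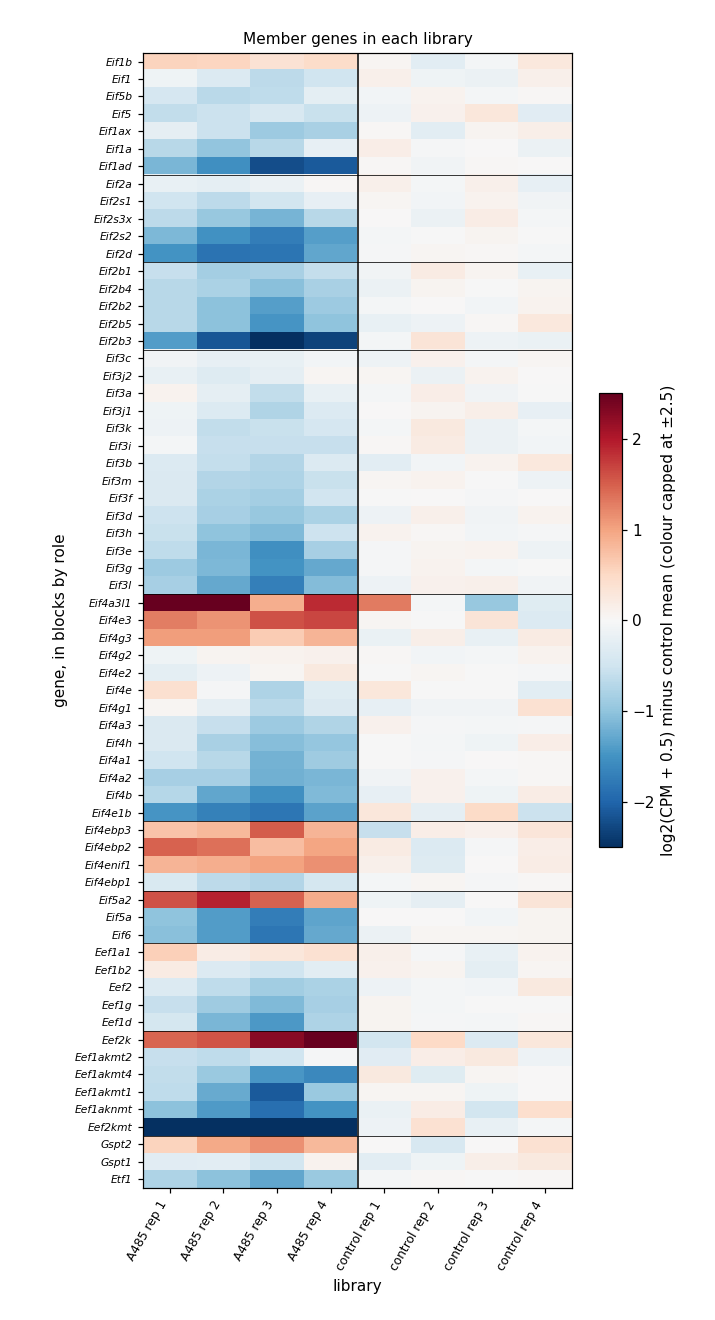
Level of each member in each library (columns, A485 left of control) as log2(CPM + 0.5) minus the control mean (colour), in blocks by role (rows). The A485 columns are mostly below the control mean, A485 replicate 3 most often lowest and A485 replicate 1 most often highest of the 4.

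Genes of cap binding and unwinding were mixed, with 6 of 13 lower, 3 higher and 4 not past the threshold. Eif4a1, the main RNA helicase, had 2793, 2430, 1737 and 2142 CPM in A485, against 3912, 3887, 3967 and 4009 CPM in control. It fell by 0.79 on the log2 scale (edgeR adjusted p = 0.00190). Its paralog Eif4a2 fell to 145.7 ± 20.4 CPM in A485, against 290.7 ± 17.5 CPM in control (SD, n = 4 each), a fold of 0.501 (edgeR adjusted p = 0.000176). Eif4b and Eif4h, which stimulate the helicase, had log2 fold changes of -1.15 and -0.78, and Eif4a3, a helicase of the exon junction complex, -0.64.

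The cap-binding proteins differed from each other. Eif4e, the cap-binding protein itself, had 1070, 799.5, 474.2 and 661.5 CPM in A485, against 990.5, 801.1, 807.9 and 676.5 CPM in control. Its groups overlapped widely, and it did not pass (log2 fold change -0.12, edgeR adjusted p = 0.667). Without A485 replicates 1 and 2 its log2 fold change was -0.55 and passed (edgeR adjusted p = 0.0270), and without replicates 3 and 4 it was 0.19. Eif4e2, encoding a cap-binding repressor, averaged 221.6 ± 33.6 CPM in A485 and 222.5 ± 6.06 CPM in control (SD, n = 4 each) and did not pass. Eif4e1b, the cap-binding form known from oocytes, was rare, with 3, 1, 0 and 5 counts in A485, against 37, 22, 46 and 15 counts in control. Every A485 library was below every control, and edgeR's log2 fold change of -3.88 ± 0.76 (SE, with an edgeR adjusted p = 0.00175) depends on its prior count. Without A485 replicate 4 it was -4.57. Eif4e3, a further relative, had 1.60, 1.39, 2.11 and 2.25 CPM in A485, against 0.396, 0.361, 0.583 and 0.186 CPM in control. It rose 4.75-fold (log2 fold change 2.25 ± 0.45, SE; edgeR adjusted p = 0.00192) and remained a rare transcript in both groups.

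The scaffold proteins split likewise. Eif4g1, the main bridge between cap and ribosome, averaged 70.6 ± 14.4 CPM in A485 and 87.0 ± 16.9 CPM in control (SD, n = 4 each) and did not pass (edgeR adjusted p = 0.193). Its relative Eif4g3 had 16.9, 16.9, 12.5 and 14.6 CPM in A485, against 7.05, 8.85, 6.88 and 9.14 CPM in control. It rose by 0.93 ± 0.19 on the log2 scale (SE; edgeR adjusted p = 0.00193), with groups that did not overlap. Eif4g2, which lacks the cap-binding part, did not pass (log2 fold change 0.04). Eif4a3l1, a copy of Eif4a3 with which it may share reads, had 275.5, 194.2, 32.2 and 62.9 CPM in A485, against 42.6, 16.4, 8.50 and 13.6 CPM in control. The groups overlapped. Its log2 fold change of 2.80 ± 0.77 (SE, with an edgeR adjusted p = 0.0145) was 1.21 without A485 replicates 1 and 2, which did not pass (edgeR adjusted p = 0.130). It was 3.44 without control replicate 1 and 3.53 without A485 replicates 3 and 4.

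Of 4 genes for proteins that bind and restrain eIF4E, 3 rose and the most abundant fell. Eif4ebp1, encoding the main inhibitor controlled by TOR, had 763.9, 634.5, 601.9 and 734.7 CPM in A485, against 961.2, 1034, 975.4 and 1023 CPM in control (log2 fold change -0.55, edgeR adjusted p = 0.00384). Eif4ebp2 had 11.7, 10.9, 7.04 and 8.20 CPM in A485, against 4.54, 2.98, 3.83 and 4.41 CPM in control (log2 fold change 1.26, edgeR adjusted p = 0.00154). Eif4enif1, whose product carries eIF4E into the nucleus and represses bound mRNAs, had 16.99, 17.7, 18.9 and 20.9 CPM in A485, against 10.1, 7.22, 9.29 and 10.4 CPM in control. It rose 2.01-fold (edgeR adjusted p = 0.000850), and the groups of all 4 genes were apart. Eif4ebp3 rose with a log2 fold change of 1.39 at under 3 CPM in every library, a call that was lost without A485 replicate 3 (edgeR adjusted p = 0.0698), without control replicate 1 (0.0586), without control replicate 3 (0.0530) and without A485 replicates 3 and 4 (0.120). Because the falling member was far more abundant, the summed TPM of the 4 genes was 984.9 to 1059 in A485 and 1124 to 1232 in control libraries.

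Eif5a and Eif6 fell together. Eif5a, the hypusine-carrying factor that frees stalled ribosomes, had 3186, 2440, 1939 and 2589 CPM in A485, against 6448, 6470, 6110 and 6704 CPM in control. The highest A485 library was below the lowest control, and the log2 fold change was -1.34 ± 0.16 (SE; edgeR adjusted p = 0.000123). Eif6, which keeps free large subunits from joining, had 506.2, 393.6, 297.0 and 431.9 CPM in A485, against 944.3, 1077, 1073 and 1087 CPM in control (log2 fold change -1.36 ± 0.17, SE; edgeR adjusted p = 0.000119). Eif5a2, the rare paralog of Eif5a, went the other way, with 4.27, 5.49, 3.88 and 2.51 CPM in A485, against 0.969, 0.858, 1.08 and 1.48 CPM in control (log2 fold change 1.87, edgeR adjusted p = 0.00110).

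Among elongation factors, 3 of the 5 tested fell. Eef2, the translocase, had 1112, 901.7, 771.4 and 811.5 CPM in A485, against 1290, 1356, 1351 and 1665 CPM in control, and fell by 0.65 on the log2 scale (edgeR adjusted p = 0.00465). Eef1g and Eef1d, parts of the exchange factor that recharges eEF1A, had log2 fold changes of -0.84 and -0.90, and Eef1b2, a further part, did not pass (-0.21). Eef1g averaged 1037 ± 159.8 CPM in A485 and 1854 ± 60.9 CPM in control (SD, n = 4 each; edgeR adjusted p = 0.000632).

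Eef1a1 stood apart from these. It had 6563, 4945, 5287 and 5651 CPM in A485, against 4748, 4295, 3838 and 4626 CPM in control. All A485 libraries were above all controls, but the log2 fold change of 0.36 ± 0.14 (SE) missed the threshold (edgeR adjusted p = 0.0564). It passed as higher in DESeq2 (adjusted p = 0.0377), limma-voom (0.0382), edgeR with upper-quartile factors (0.0206), a stricter filter on low counts (0.0106) and total-count scaling (0.000672). In the other 14 of 19 alternative settings it missed the threshold, with an edgeR adjusted p of up to 0.229. Eef1a2, the form of muscle and neurons, had at most 0.256 CPM in any library and was not tested.

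Levels between genes were compared per length, in the authors' TPM. Eef1a1 averaged 4065 ± 198.5 TPM in A485 and 2558 ± 167.8 TPM in control, and Eif5a averaged 2610 ± 262.2 TPM in A485 and 5382 ± 130.3 TPM in control (SD, n = 4 each). Eef1a1 was thus the most abundant member in A485, with Eif5a next, and in control Eif5a was first and Eef1a1 next, each gap being larger than the spread between libraries. In A485, Eif1 (1599 ± 155.2 TPM) and Eif4a1 (1555 ± 209.9 TPM) followed and did not differ beyond their spread (SD, n = 4 each). In control, Eif4a1 (2187 ± 101.0 TPM), Eif2s2 (1885 ± 128.8 TPM) and Eif1 (1698 ± 148.4 TPM) followed (SD, n = 4 each). Eif2s2 averaged 867.1 ± 56.8 TPM in A485, next to Eef1g at 872.1 ± 45.1 TPM, within their spread (SD, n = 4 each). All members together summed to 19370 to 21660 TPM in A485 and 25990 to 26930 TPM in control libraries, 22.4% lower on the mean. Without Eef1a1 the sum was 15060 to 17530 TPM in A485 and 23430 to 24550 TPM in control, 31.1% lower. TPM carry no TMM factor, and that factor was 0.996 to 1.21 in A485 and 0.877 to 0.935 in control libraries.

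**Figure D4:**
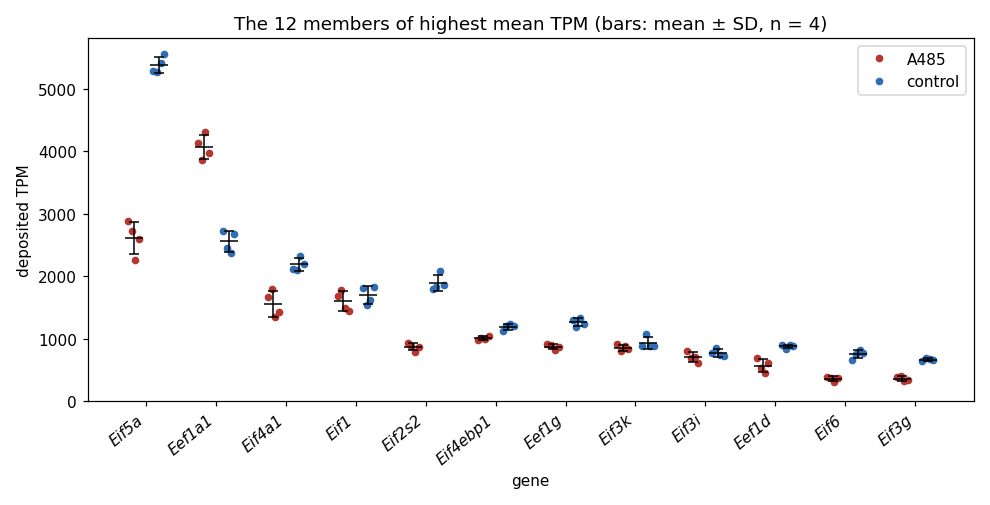
Deposited TPM (vertical axis) of the 12 members of highest mean TPM (horizontal axis), with 1 point per library, A485 left of control, and the mean ± SD of each group (n = 4). Eef1a1 averaged 4065 TPM in A485 and 2558 TPM in control, and Eif5a averaged 2610 TPM in A485 and 5382 TPM in control.

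Among the enzymes that modify elongation factors, 4 of the 6 tested fell and 1 rose. Eef2kmt, which methylates eEF2, had 4.84, 4.35, 4.83 and 1.89 CPM in A485, against 26.7, 38.2, 25.8 and 28.2 CPM in control. Its level was 7.47-fold higher in control (log2 fold change -2.90 ± 0.30, SE; edgeR adjusted p = 4.95e-05). Eef2k, the kinase that phosphorylates and restrains eEF2, had 3.53, 3.88, 6.60 and 14.4 CPM in A485, against 0.573, 1.58, 0.667 and 1.30 CPM in control. All A485 libraries were above the controls, replicate 4 the highest, and the log2 fold change was 2.79 ± 0.53 (SE; edgeR adjusted p = 0.00153). It was 2.18 without A485 replicate 4 and 1.85 without A485 replicates 3 and 4, and passed in both. The eEF1A methyltransferase genes Eef1akmt1 (-1.15), Eef1akmt4 (-1.13) and Eef1aknmt (-1.62) fell on the log2 scale, and Eef1akmt2 did not pass (-0.45).

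For termination, Etf1, encoding eRF1, had 134.4, 111.6, 92.4 and 119.1 CPM in A485, against 221.4, 233.0, 228.1 and 231.7 CPM in control, and a log2 fold change of -0.999 ± 0.13 (SE, with an edgeR adjusted p = 0.000185). Gspt1, encoding its GTPase partner eRF3a, had 56.3, 57.0, 49.7 and 72.4 CPM in A485, against 56.8, 63.5, 75.4 and 80.8 CPM in control, and did not pass (edgeR adjusted p = 0.254). Gspt2, encoding eRF3b, had 3.53, 4.79, 5.55 and 4.29 CPM in A485, against 2.25, 1.58, 2.25 and 3.06 CPM in control. It rose (log2 fold change 0.99, edgeR adjusted p = 0.0135), a call lost without A485 replicates 3 and 4 (0.0556).

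Ratios between paralogs within a library do not depend on library scaling. Of 11 pairs, 10 had both genes tested, and in 7 the log2 count ratio separated the groups completely. Each of the 7 had an exact two-sided permutation p of 0.0286, the smallest that 4 libraries against 4 allow, and 0.0409 after adjustment over the 10 pairs. The pairs were chosen with earlier results of these data known, and their ratios use the same counts as the single-gene changes above. Several pairs also share Eif4e. The share of other gene pairs whose ratio separates the groups was not computed, and 51.5% of single tested genes had groups apart in CPM. These p-values are therefore no separate support. The ratio of Eif5a2 to Eif5a was higher in A485 by 3.20 on the log2 scale, that of Eif4e3 to Eif4e by 2.45, that of Eif4ebp2 to Eif4ebp1 by 1.80, that of Eif4g3 to Eif4g1 by 1.24, that of Gspt2 to Gspt1 by 1.23 and that of Eif1b to Eif1 by 0.88. The ratio of Eif4e1b to Eif4e was lower in A485, by a difference of -3.92. In shares of the pair's TPM, Gspt2 made up 18.5 ± 4.50% in A485 and 8.68 ± 1.65% in control, and Eif4g3 made up 15.2 ± 0.880% in A485 and 7.30 ± 0.916% in control (SD, n = 4 each). Eif5a2 was still 0.0378 ± 0.0136% of its pair in A485 and 0.00389 ± 0.000881% in control (SD, n = 4 each), so the major form remained by far the more abundant.

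The ratio of Eif1a to Eif1ax differed by -0.03 between the groups (exact permutation p = 0.914, adjusted over pairs 0.914), that of Eif4a2 to Eif4a1 by -0.19 (0.0857, adjusted 0.107) and that of Eif4e2 to Eif4e by 0.16 (0.686, adjusted 0.762). With a library left out these differences ranged from -0.24 to 0.12, from -0.25 to -0.14 and from -0.07 to 0.42. A p above the threshold does not show that these ratios were alike.

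**Figure D5:**
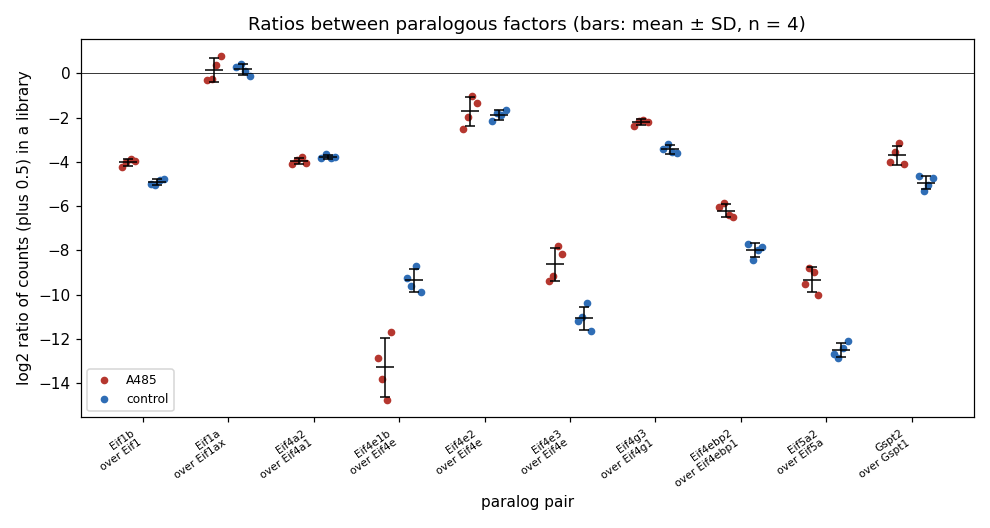
Log2 ratio of the counts of paralogous factors (plus 0.5) in each library (vertical axis) for 10 pairs (horizontal axis), A485 left of control, with the mean ± SD of each group (n = 4). The groups are fully apart in 7 pairs and overlap for Eif1a over Eif1ax, Eif4a2 over Eif4a1 and Eif4e2 over Eif4e.

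The members also varied together among A485 libraries. A485 replicate 1 was the highest of the 4 A485 libraries for 42 of the 65 tested members, where it was highest for 26.4% of all tested genes. A485 replicate 3 was the lowest for 42 of the 65, where it was lowest for 25.3% of all tested genes. The median member deviated from its A485 mean by 0.26, -0.04, -0.23 and 0.05 on the log2 scale in replicates 1 to 4, and all genes by -0.04 to 0.03. These CPM are divided by the TMM factor, which was 0.996, 1.14, 1.21 and 1.08 in replicates 1 to 4. Of the unscaled counts, members made up 3.10, 2.82, 2.66 and 2.79%. How much of the shared pattern comes from the scaling was not tested. In the same order, the summed morula markers were 5890, 4994, 3525 and 4898 CPM. The blood sum, nearly all of it Hba-a1, was 126.7, 100.9, 328.8 and 157.0 CPM. The summed ribosomal protein TPM were 297200, 252100, 230400 and 241000. Within the morula sum, Dppa3 had 3951, 2293, 727.9 and 1039 CPM. By contrast, Krt8 had 655.7, 1292, 1186 and 1734 CPM and Krt18 had 648.8, 965.5, 1241 and 1570 CPM, both lowest in replicate 1. Whether these go together was not tested.

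Genes that act on the factors were counted from lists of other members of the pathway. The shares below are to be read against the 29.7% of all tested genes that rose and the 25.0% that fell. Of 8 kinases and phosphatase subunits acting on eIF2 alpha, 3 rose (37.5%, near the share of all genes) and 0 fell. The 3 were Eif2ak3, encoding the kinase PERK of endoplasmic reticulum stress (log2 fold change 2.16, edgeR adjusted p = 0.000549), Ppp1r15b, encoding a targeting subunit of the phosphatase (0.76), and Nck1 (0.61). The other kinase genes, Eif2ak1 (0.30), Eif2ak2 (0.32) and Eif2ak4 (0.59), did not pass. Of 13 genes of TOR and MNK signalling, 2 rose (15.4%) and 4 fell (30.8%, near the share of all genes). Mknk2, a kinase of eIF4E, rose with a log2 fold change of 2.06, and Mlst8, a subunit of both TOR complexes, fell by 2.24 on the log2 scale (edgeR adjusted p = 0.000105 for each). Rps6kb1, the S6 kinase, rose (0.97), and Akt1s1 (-1.06), Rps6kb2 (-0.63) and Larp1 (-0.53), whose product binds TOP mRNAs, fell.

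Of 13 genes that modify or assemble the factors, 7 fell (53.8%) and 1 rose (7.69%). Dph1 and Dph3, which act in making the diphthamide of eEF2, had log2 fold changes of -1.95 and -1.52. Of the other Dph genes listed, Dph2 fell (-1.34), and Dph5 (-0.36), Dph6 (-0.24) and Dph7 (-0.49) did not pass. Dohh, the hydroxylase that completes hypusine on eIF5A, had a log2 fold change of -0.47, whereas Dhps, also listed, did not pass (-0.26). That of Cdc123, which assembles eIF2, was 0.79 (edgeR adjusted p = 0.00371). Of 11 genes of ribosome recycling, rescue and reinitiation, 4 fell (36.4%) and 1 rose (9.09%). Abce1, which splits ribosomes after termination, fell by 1.24 on the log2 scale, and Mcts2, a relative of the reinitiation factor MCTS1, by 1.73 (edgeR adjusted p = 6.99e-05). Gtpbp2, a GTPase of ribosome rescue, rose by 3.19 (edgeR adjusted p = 0.000792). It was rare, with 50, 82, 247 and 116 counts in A485, against 10, 6, 21 and 7 counts in control. Its direction may therefore be partly tied to the filter on low counts. Of 5 tested genes around the poly(A)-binding protein, Paip2 rose (0.32) and Paip2b fell (-0.61), both inhibitors of that protein, and Pabpc1 did not pass (0.29).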

How the data were processed

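The authors deposited 1 table of 18257 genes with, per the file headers, estimated counts, TPM, FPKM and normalized counts (a scaled signal) for each library, and their log2 fold change, DESeq2 p-value and q-value. Tools listed in the submitters' processing notes are DESeq2 1.40.2, RSEM 1.2.28 and HISAT2 2.2.1, with the build GRCm38.p6. No source used here says whether libraries were stranded. Estimated counts (18.2% not whole) were rounded to whole numbers and fitted in R 4.3.3 by edgeR 4.0.16 (robust quasi-likelihood fit on group after filterByExpr and TMM). P-values were adjusted over 12936 genes (Benjamini-Hochberg), and an adjusted p under 0.05 was called. Each SE of a log2 fold change was derived as its absolute value divided by the square root of edgeR's F statistic. It was not estimated directly. The code was tested on simulated data. FPKM and normalized counts were not used. Amplified copies are counted like separate molecules. Paralog ratios (counts plus 0.5) were compared over 70 assignments of libraries with scipy 1.17.1.

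The members, roles, lists and pairs were chosen with earlier results of these data known. Full values are given for the 31 members named by a rule: in each role the smallest p in each direction, the 4 largest changes each way at a log2 CPM of at least 3 without overlap, the 3 highest TPM, pairs that separate the groups, and a fixed set. Members given with values beside these, among them Eif2s2, Eif4e2 and Eif4a3l1, were added after their values were seen. In other lists the rule names the smallest p in each direction, and further genes were likewise added. Alternatives were DESeq2 1.42.0, limma-voom (limma 3.58.1), other scalings and filters, a replicate block and left-out libraries. Promoters came from RefSeq (GRCm38.p6), and 50 of 68 members matched.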

Additional observations from a re-analysis of the deposited data

Results flagged for a closer look

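Of 130 groups of 4 libraries examined, 6 held a library far from the other 3, and chance gives about 1 in 20. Eef2kmt was 1.89 CPM in A485 replicate 4, against 4.35 to 4.84 CPM in the other A485 libraries. Eif3i was 726 CPM in A485 replicate 1, with the others at 498 to 504 CPM, and Eif4g2 was 228 CPM there, with the others at 261 to 266 CPM. Eif4ebp3 was 2.93 CPM in A485 replicate 3, with the others at 1.48 to 1.66 CPM. Among control libraries, Eif1ad was 294 CPM in replicate 2, with the others at 316 to 320 CPM, and Eif6 was 944 CPM in replicate 1, with the others at 1070 to 1090 CPM.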

How the results depend on the processing

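Across 19 alternatives, 33 (total-count scaling) to 47 (without A485 replicates 1 and 2) members were lower, 39 to 44 with a single library left out, and 6 to 12 were higher, 8 to 10 with a single library left out. The 6 came from a filter of 5 CPM in 4 libraries, which left 59 members to test, and the 12 from total-count scaling. No called member changed direction. With total-count scaling all genes had a median log2 fold change of 0.37, against 0.09 with TMM. It also moved the share of called members that were higher to 26.7%, against 19.2%. It took Eif1, Eif1a, Eif1ax, Eif2s1, Eif3b, Eif3i, Eif3k, Eif5 and Eif5b from the lower members and added Eef1a1 and Eif4g2 as higher. Eif1ax was also lost without A485 replicates 3 and 4. Members that passed in neither setting turned sign. Eif4e2 was 0.087 with upper-quartile factors, 0.29 with total-count scaling, 0.12 with the 5 CPM filter, 0.14 without A485 replicates 1 and 2 and -0.102 to 0.058 with a single library left out. With total-count scaling Eef1b2 was 0.06, Eif2a 0.15, Eif3a 0.053, Eif3c 0.15, Eif3j2 0.12, Eif4e 0.14 and Gspt1 0.046. Eif4g2 was -0.021 without the filter, -0.019 without A485 replicates 3 and 4, and -0.022 to 0.077 with a single library left out. Eif4e was 0.19 without A485 replicates 3 and 4 and -0.353 to 0.043 with a single library left out. The causes were not tested. The replicate block left 41 members lower and 10 higher, losing Eif3k (adjusted p = 0.0524). Libraries of the same number correlated at 0.01 to 0.10 in their deviations and not every one best with its own number, so numbers are not taken as pairs. The 7 paralog differences had the same sign with each library left out, from -4.46 to -3.43 for Eif4e1b and 3.02 to 3.42 for Eif5a2. They are given as values, since the exact permutation test cannot go below 0.0571 with a library left out. Rare members rest on few counts.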
